A study of Rattus norvegicus with 12 samples.

Results

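The gene expression described here is that of rat nucleus pulposus cells treated with TNF-a, with and without an shRNA against TonEBP. The libraries are 6 of the 12 in the series: the 3 labelled shTon_TNF and the 3 labelled PLKO_TNF, and shTon_TNF was compared with PLKO_TNF set by set. All cells were primary cells of Wistar rats, labelled as nucleus pulposus, that grew out of explanted disc tissue in DMEM with 10% serum. They carried a lentivirus with either the control vector PLKO or the shRNA shTon, and all 6 cultures received 50 ng/mL TNF-a during the 24 h before collection, so the controls had TNF-a too. The other 6 libraries, PLKO_CTR and shTon_CTR, had the same vectors and no TNF-a, and are used below for the knockdown without TNF-a. Each group has 3 libraries, 1 in each of sets 1, 2 and 3. The sources used here do not say what separates 1 set from another, nor the age of the rats or how many shRNA sequences were used. With the set as a block, each p-value covers how far the difference between shTon_TNF and PLKO_TNF varied from set to set. That spread may be technical. Of 13176 genes listed for the 6 libraries, the 12213 whose mean over the libraries was 10 normalised reads or more were tested.

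TonEBP, the protein product of Nfat5, is a transcription factor of the Rel family. It is best known for the response to high salt or osmolarity, when it raises the transporters and enzymes that fill cells with compatible osmolytes, and the nucleus pulposus, the hydrated centre of each spinal disc, is a tissue of high osmolarity. Its DNA-binding domain resembles that of NF-kB, the factor through which TNF-a raises cytokines, chemokines and matrix-degrading enzymes. The series asks how far the transcriptional response of disc cells to TNF-a rests on TonEBP.

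Nfat5 (ENSRNOG00000011879), the target of the shRNA, did not follow the labels in every set. The PLKO_TNF libraries of sets 1, 2 and 3 held 608, 1042 and 462 normalised reads of it, and their shTon_TNF partners held 1621, 478 and 221. The partner with the shRNA was the lower of the pair in sets 2 and 3. In set 1 it was the higher, and it held more Nfat5 reads than any of the other 5 libraries. The log2 ratios of shTon_TNF to PLKO_TNF in the sets were 1.41, -1.12 and -1.06, and the fold change fitted over the sets did not pass limma's test (log2 fold change -0.26, SE 0.44, adjusted p = 0.799). With all 12 libraries scaled together the set 1 library labelled shTon_TNF held 1695 normalised reads, against 458 in shTon_CTR of the same set. Every direction given below for shTon_TNF therefore rests on a label that Nfat5 goes against in 1 of 3 sets, and the counts of calls in each list are also given without set 1. Genes named only for a call without set 1 were chosen after their values were seen. Each list count without set 1 stands beside shares of 1.52% of all genes higher and 2.51% lower in that fit.

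**Figure D1:**
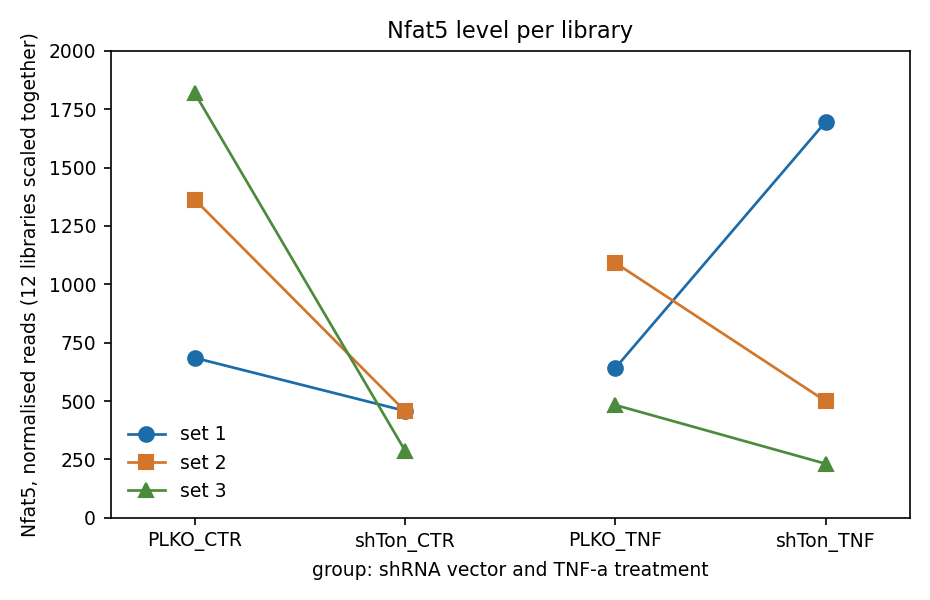
Nfat5 in normalised reads (y axis, linear, 12 libraries scaled together) for the 4 groups (x axis), with 1 point per library and a line joining the PLKO and shTon libraries of a set. All lines fall without TNF-a, and with TNF-a those of sets 2 and 3 fall while that of set 1 climbs from 642 to 1695.

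Reads on listed genes numbered 7160042 to 18645538 in the 6 libraries. The libraries carried markers of more than 1 cell type. Summed normalised reads of 19 skeletal muscle genes were 50865, 20220 and 165 in PLKO_TNF and 100969, 19429 and 251 in shTon_TNF, so that muscle transcripts were high in sets 1 and 2 and near absent in set 3. Krt8, a keratin of nucleus pulposus cells, had 60.9, 65.2 and 1271 normalised reads in PLKO_TNF and 89.8, 105 and 1302 in shTon_TNF, and was highest in set 3. Not all nucleus pulposus and notochord markers tested followed Krt8. Cdh2, Foxf1 and Slc2a1 were lowest in set 3 in both groups. The sums of the 7 markers were 4975, 5677 and 5536 normalised reads in PLKO_TNF and 4108, 4514 and 5162 in shTon_TNF. Other defining nucleus pulposus and notochord genes (T, Krt18, Krt19, Shh, Acan, Col2a1, Sox9) are not analysed here. Of 7 leukocyte markers 3 could be tested, and the sums of the 7 were 569, 348 and 203 against 568, 710 and 416. Of these reads Cd14 alone held 136, 235 and 121 in PLKO_TNF and 221, 629 and 400.2 in shTon_TNF. In bulk samples of this kind fewer cells of a type and less RNA per cell cannot be told apart.

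At an adjusted p under 0.05 in limma, with sets entered as a block, 31 of 12213 genes (0.254%) changed. Of these 14 rose (0.115% of genes tested) and 17 fell (0.139%) in the libraries labelled shTon_TNF. The largest falls were those of the chemokine gene Ccl3, the surface protein gene Plet1, the lipase gene Lpl, the chemokine gene Cxcl2 and the EGF-receptor ligand gene Ereg. The falls also included the cytokine genes Il6, Il11 and Csf3, and Akr1b8, Slc7a11 and Ftl1 of the NRF2 and iron list. The rises included Wnt11, the collagen genes Col3a1 and Col5a3, and the protease genes Adamts2, Adamts12, Pappa and Plau. All 31 had a ratio of the same sign in 3 of 3 sets, and all 31 also passed without set 1, where 488 genes passed (4.04% of 12092, with 1.52% higher and 2.51% lower). In 19 of the 31 the values of the groups did not overlap, as they did not in 12.9% of all genes tested. The median log2 fold change of all genes tested was 0.02. The count depended on the model: 0 genes passed without the block for sets (770 at an unadjusted p under 0.05) and 0 without the mean-variance trend (1879 at an unadjusted p under 0.05). With all 12 libraries sharing 1 estimate of the spread 444 passed (3.61%, 1.67% higher and 1.94% lower), among them 29 of the 31, and by DESeq2 363 passed, among them all 31. Without set 2 Adamts12 was lost (adjusted p = 0.0773), and without set 3 19 of the 31 passed. Among those lost without set 3 were Mt1, Egln3, Tmem199, Csf3, Plau, Ubxn4, Lrrc32, Glis2, Slc7a11, Wnt11 and Tinagl1 (adjusted p of 0.0507 to 0.0678).

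**Figure D2:**
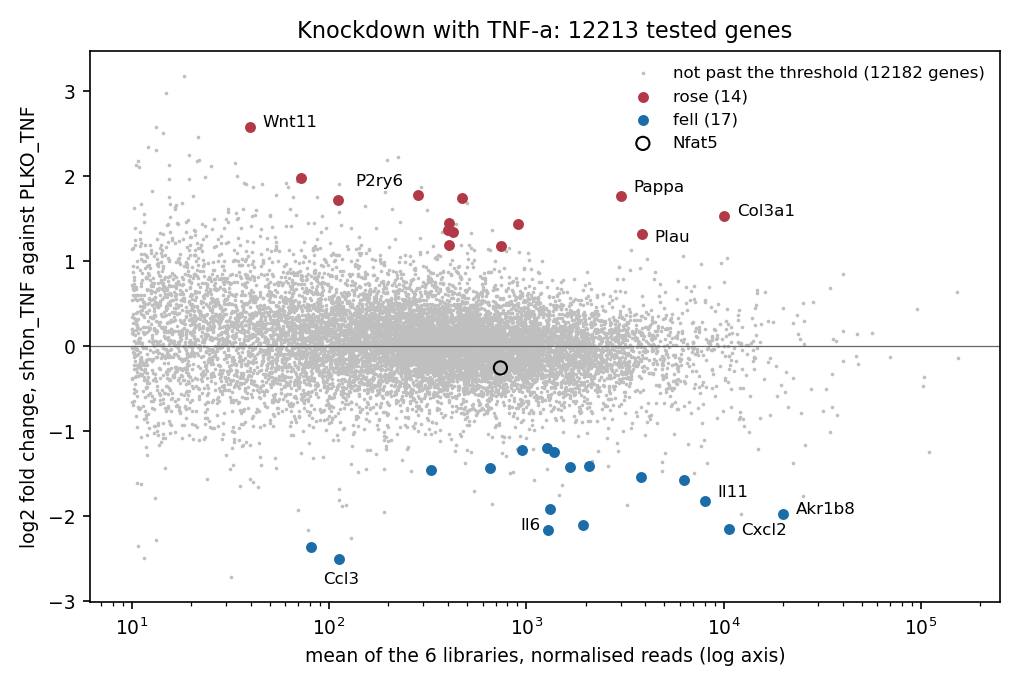
Log2 fold change of shTon_TNF against PLKO_TNF (y axis) against the mean of the 6 libraries in normalised reads (x axis, log scale) for 12213 genes. The 14 genes that rose lie between 1.18 and 2.58 and the 17 that fell between -1.20 and -2.51, and Nfat5 lies at -0.26 among the genes that did not pass.

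Among the CXC chemokines, only some of which draw neutrophils, 0 of 9 tested genes rose and 1 fell, with 8 of 9 lower by value (median log2 fold change -0.77). Over all genes tested, 0.115% rose, 0.139% fell and 47.6% were lower by value. Cxcl2 held 7082, 37522 and 8241 normalised reads in PLKO_TNF and 2372, 6939.7 and 1511 in shTon_TNF. It was below its control in each set and every shTon_TNF library was below every PLKO_TNF library, with a fold change of -2.15 (SE 0.22, adjusted p = 0.0279). With all 12 libraries in the fit its call was lost (adjusted p = 0.0614). Without set 1, 4 of 8 tested members fell and 0 rose, against 2.51% and 1.52% of all genes. Cxcl10, the interferon-type chemokine, was chosen after its values were seen. It had 1552, 544 and 395 normalised reads in PLKO_TNF and 349.9, 343 and 79.5 in shTon_TNF and did not pass with 3 sets (log2 fold change -1.70, SE 0.31, adjusted p = 0.0775), but did without set 1 (log2 fold change -1.48, adjusted p = 0.00908). Cxcl1, also chosen after its values were seen, which had up to 63061 normalised reads, had a log2 fold change of -0.77 (SE 0.24, adjusted p = 0.182). Reads of Cxcl1, Cxcl2 and Cxcl3, which are related genes, could have been shared between them. The sources used here do not say how such reads were handled.

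Of 9 CC and CX3C chemokines, which draw monocytes and lymphocytes, 1 fell and 0 rose (median -0.37). Ccl3, a macrophage inflammatory protein, had 340.2, 207 and 25.5 normalised reads in PLKO_TNF and 77.5, 23.5 and 4.33 in shTon_TNF. This was the largest fall of the 17 (log2 fold change -2.51, SE 0.30, adjusted p = 0.0321), although the groups overlap, with set 3 low in both. Ccl20 had a log2 fold change of -1.18 (SE 0.20, adjusted p = 0.0775) and Ccl2, the most abundant member with up to 149256 normalised reads, -0.36 (SE 0.34, adjusted p = 0.626). Neither passed, and both were chosen after their values were seen. Without set 1, 2 members fell (Ccl3 and Ccl20) and 1 rose, Ccl9 (log2 fold change 2.06, adjusted p = 0.0336).

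Cytokines and colony-stimulating factors had 3 falls and 0 rises among 20 tested genes (median -0.75, 13 lower by value), and 7 falls and 0 rises without set 1. Over all genes tested, 0.139% fell, 0.115% rose and 47.6% were lower by value. Without set 1, 2.51% of all genes fell and 1.52% rose. Il6, a cytokine of fever and the acute phase, held 1363, 3469 and 1452 normalised reads in PLKO_TNF and 382, 779 and 423 in shTon_TNF. Its log2 ratios of -1.83, -2.15 and -1.78 were close to each other, the groups did not overlap, and it had the smallest adjusted p of all genes (log2 fold change -1.92, SE 0.16, adjusted p = 0.0231). The related cytokine gene Il11, whose product signals through a receptor subunit shared with Il6, had 6166, 30459 and 1003 normalised reads in PLKO_TNF and 2198, 8333 and 229.7 in shTon_TNF. It fell in each set, but sets differed by more than the groups did (log2 fold change -1.83, SE 0.18, adjusted p = 0.0279). Csf3, or G-CSF, which drives the making of neutrophils, held 2595, 11579 and 3267 in PLKO_TNF and 1316, 3073 and 985 in shTon_TNF (log2 fold change -1.54, SE 0.21, adjusted p = 0.0389). Its call was lost with all 12 libraries in the fit (adjusted p = 0.164) and without set 3 (adjusted p = 0.0557). Il1b, a cytokine that also activates NF-kB, had 409, 524 and 34.0 normalised reads in PLKO_TNF and 65.3, 91.1 and 20.2 in shTon_TNF. It was chosen after its values were seen, was lower in 3 of 3 sets and did not pass (log2 fold change -1.95, SE 0.38, adjusted p = 0.08).

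Promoters of the called genes Cxcl2, Il6 and Il11 are shown for the letters of 2 motifs. These are TGGAAA, the core of the element that TonEBP binds, and an NF-kB element of the form GGG, any pair of bases, then TTTCC. The 250 bases before the RefSeq start of the gene were searched on both strands (rat build GRCr8, which is not the build of the reads), and 19 of the 31 called genes matched a promoter by symbol. Cxcl2, Il6 and Il11 were chosen for printing after the search, as genes that fell and hold a match. Ubxn4 also fell and holds 2 TonEBP cores and no NF-kB match, and is not printed. Csf3 and Ccl3 were not matched to a promoter. Capitals mark the matches.
Cxcl2: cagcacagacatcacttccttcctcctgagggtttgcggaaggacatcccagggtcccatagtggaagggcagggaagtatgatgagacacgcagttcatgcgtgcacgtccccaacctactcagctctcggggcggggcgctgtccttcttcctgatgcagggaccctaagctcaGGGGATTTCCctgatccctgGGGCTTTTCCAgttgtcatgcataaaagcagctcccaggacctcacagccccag
Il6: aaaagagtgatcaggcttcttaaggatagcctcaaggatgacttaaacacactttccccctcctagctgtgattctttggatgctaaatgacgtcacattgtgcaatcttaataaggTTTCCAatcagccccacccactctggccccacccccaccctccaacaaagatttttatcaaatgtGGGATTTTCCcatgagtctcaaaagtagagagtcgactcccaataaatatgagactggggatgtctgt
Il11: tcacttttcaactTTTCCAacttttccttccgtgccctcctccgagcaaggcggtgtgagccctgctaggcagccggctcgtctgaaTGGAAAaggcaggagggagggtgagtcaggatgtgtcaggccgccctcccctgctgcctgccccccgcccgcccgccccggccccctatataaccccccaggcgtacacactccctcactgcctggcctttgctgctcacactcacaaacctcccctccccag
The Cxcl2 window lies at chr14:17467256-17467505 on the minus strand. Its NF-kB matches begin 74 and 54 bases before the start, and the TonEBP core at -49 overlaps the second of them. The Il6 window, chr4:5894576-5894825 on the minus strand, has a TonEBP core at -133 and an NF-kB match at -68. The Il11 window, chr1:78098372-78098621 on the plus strand, has TonEBP cores at -237 and -163 and no match to these NF-kB letters. Of the 11 matched genes that fell, 4 (36.4%) hold the TonEBP core and 2 (18.2%) the NF-kB letters. Of the 8 that rose, 2 (25.0%) and 0 do. The core stands in 14.3% of the promoters of 9735 tested genes and in 19.7% of all 33469, and the NF-kB letters in 1.52% and 1.3%. These are matches of letters and not measured binding.

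In the fit over 3 sets neither the receptors nor the NF-kB list gave a call. Only 0.254% of all genes tested did, so 0 calls do not set lists of this length apart. Of 27 tested cytokine and pattern-recognition receptors 0 rose and 0 fell (median 0.06), and of 23 NF-kB subunits, feedback and adhesion genes 0 rose and 0 fell (median -0.05). Cd14, a receptor for bacterial lipopolysaccharide, had 136, 235 and 121 normalised reads in PLKO_TNF and 221, 629 and 400.2 in shTon_TNF, and Tnfrsf11b, which encodes the RANKL decoy osteoprotegerin, 5975, 9899.8 and 3902 normalised reads in PLKO_TNF and 4607, 4289.7 and 681 in shTon_TNF. They had the smallest p-values of the receptors and did not pass (log2 fold change 1.27, SE 0.23, adjusted p = 0.0775, and -1.37, SE 0.35, adjusted p = 0.131), while both passed without set 1 (log2 fold change 1.56, adjusted p = 0.00127, and -1.86, adjusted p = 0.000924), the 1 rise and 1 fall of the list there. In the NF-kB list the smallest p-values were those of Tnip3, an A20-binding inhibitor, with a log2 fold change of -0.52 (SE 0.15, adjusted p = 0.175), and of Bcl3, an atypical IkB protein, with a log2 fold change of 0.60 (SE 0.21, adjusted p = 0.222). Without set 1 the NF-kB list had 1 rise, Tnfaip6, which encodes the hyaluronan-binding protein TSG-6 (log2 fold change 1.33, adjusted p = 0.00619), and 1 fall, the adhesion molecule gene Vcam1 (log2 fold change -1.11, adjusted p = 0.0481). Nfkbia, which encodes IkB-alpha, had 6403, 5377 and 10604 normalised reads in PLKO_TNF and 6429.9, 6825 and 12657 in shTon_TNF, and its fold change was 0.20 (SE 0.18, adjusted p = 0.609). Rela, the p65 subunit, had a log2 fold change of -0.09 (SE 0.17, adjusted p = 0.828). Nfkbia and Rela were chosen after their values were seen, as the best known members.

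Enzymes of inflammatory mediators and acute-phase genes had 1 fall and 0 rises among 20 (median -0.68), with 17 lower by value and 14 lower in 3 of 3 sets. For comparison, 47.6% of all genes tested were lower by value and 19.8% lower in 3 of 3 sets. Nampt, the rate-limiting enzyme of NAD salvage, held 2201, 4304 and 2663 normalised reads in PLKO_TNF and 928, 1318 and 1091 in shTon_TNF. Its shTon_TNF libraries all lay below the PLKO_TNF libraries (log2 fold change -1.41, SE 0.17, adjusted p = 0.0314). C1s and Hp, named after their values were seen, were lower by value in each set without passing. C1s, a protease of the complement cascade, had 15129, 20812 and 21914 normalised reads in PLKO_TNF and 7284, 5804 and 2661 in shTon_TNF (log2 fold change -1.98, SE 0.34, adjusted p = 0.0775), and Hp, haptoglobin, 4115, 5043 and 24277 normalised reads in PLKO_TNF and 2346, 2222 and 4295 in shTon_TNF (log2 fold change -1.50, SE 0.30, adjusted p = 0.0889). Without set 1, 7 of the 20 fell and 0 rose.

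The oxidant and iron response was the list with every tested member lower by value. Of 22 NRF2, iron and metallothionein genes, 3 fell and 0 rose, 22 were lower by value and 17 lower in 3 of 3 sets (median -0.68, set medians -0.45, -0.50 and -0.97). Over all genes tested, 0.139% fell, 47.6% were lower by value and 19.8% lower in 3 of 3 sets. Akr1b8, an aldo-keto reductase that detoxifies aldehydes, held 47449, 18385 and 28040.2 normalised reads in PLKO_TNF and 15769.9, 4733 and 5434 in shTon_TNF. The groups did not overlap (log2 fold change -1.97, SE 0.23, adjusted p = 0.0314), and Akr1b8 was the most abundant of the 31 called genes. Slc7a11, the cystine transporter that feeds glutathione synthesis, had 19291, 6454 and 477 normalised reads in PLKO_TNF and 9611, 1655 and 139 in shTon_TNF. It fell in each set across a wide range of levels between sets (log2 fold change -1.58, SE 0.21, adjusted p = 0.0389), but not by edgeR's test on the recovered reads (adjusted p = 0.0586). Ftl1, the light chain of the iron store ferritin, had 1821, 665 and 1504 normalised reads in PLKO_TNF and 705, 262 and 769 in shTon_TNF (log2 fold change -1.23, SE 0.16, adjusted p = 0.0389). The metallothionein gene Mt1 (ENSRNOG00000025764, 1 of 2 entries with this symbol), which is in no list, had 408, 315 and 722 normalised reads in PLKO_TNF and 160.1, 107 and 260.1 in shTon_TNF (log2 fold change -1.45, SE 0.18, adjusted p = 0.0321). Reads of Akr1b8, Ftl1 and Mt1 could also have been shared with near-identical relatives or pseudogenes. Hmox1, heme oxygenase, was chosen after its values were seen. It had 4899, 3725 and 6258 normalised reads in PLKO_TNF and 2533, 1136 and 805 in shTon_TNF, and passed without set 1 (log2 fold change -2.33, adjusted p = 6.66e-05) but not with it (log2 fold change -1.87, SE 0.33, adjusted p = 0.0775). Without set 1, 10 of the 22 fell and 0 rose. Nfe2l2, which encodes NRF2 itself, had a log2 fold change of -0.13 (SE 0.17, adjusted p = 0.724), also chosen after its values were seen.

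The remaining genes that fell have varied roles. Ereg, epiregulin, is a ligand of the EGF receptor and was the 1 call among 30 ERK feedback, AP-1 and early growth response genes (2 falls and 0 rises without set 1). It held 4586, 2398 and 2109 normalised reads in PLKO_TNF and 1567, 593 and 315 in shTon_TNF, without overlap (log2 fold change -2.10, SE 0.23, adjusted p = 0.0279). Egln3, a prolyl hydroxylase that marks hypoxia-inducible factors for degradation, was the 1 call among 29 glycolysis and hypoxia genes (median -0.04, with 2 rises and 5 falls without set 1). It had 1409, 1643 and 2289 normalised reads in PLKO_TNF and 547, 837 and 948 in shTon_TNF (log2 fold change -1.20, SE 0.16, adjusted p = 0.0389). Sacm1l, a phosphoinositide phosphatase of the endoplasmic reticulum and Golgi, had 2700.2, 2609.9 and 1901 normalised reads in PLKO_TNF and 1284, 957 and 561 in shTon_TNF, with all shTon_TNF libraries below all PLKO_TNF libraries (log2 fold change -1.43, SE 0.18, adjusted p = 0.0377). Tmem199, which takes part in assembly of the vacuolar proton pump, had 994, 1038 and 779 normalised reads in PLKO_TNF and 507, 375 and 215 in shTon_TNF (log2 fold change -1.43, SE 0.20, adjusted p = 0.0394). Ubxn4, a factor of endoplasmic-reticulum-associated degradation, had 2105, 2052 and 1612 normalised reads in PLKO_TNF and 1119, 791 and 582 in shTon_TNF (log2 fold change -1.25, SE 0.17, adjusted p = 0.0389). None of these last 3 genes overlapped between groups.

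Lpl and Plet1 fell from levels that ran across sets over a wide range. Lpl, lipoprotein lipase and the 1 call among 8 neural, glial and adipocyte markers (2 falls and 0 rises without set 1), had 4834, 931 and 7.28 normalised reads in PLKO_TNF and 1706, 241 and 0 in shTon_TNF. Set 1 held most of it and set 3 almost none, so its value in set 3 rests on few reads (log2 fold change -2.16, SE 0.30, adjusted p = 0.0389). Plet1, a surface protein of epithelial progenitors, had 234, 142 and 26.7 normalised reads in PLKO_TNF and 42.8, 39.4 and 2.89 in shTon_TNF (log2 fold change -2.36, SE 0.31, adjusted p = 0.0389). Plet1 and Ubxn4, like Wnt11 and Tmem26 below, fall outside the rule for naming genes and were chosen after their values were seen.

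The list of metalloproteinases, ADAMTS proteases and their inhibitors had 2 rises and 0 falls among 29 tested genes (median 0.14). Its set medians were 0.39, 0.36 and -0.69, so that set 3 went the other way. In 3 of 3 sets 11 members were higher and 8 lower, against 20.5% and 19.8% of all genes tested. Adamts2, which removes the amino-terminal propeptide of fibrillar procollagens, held 228, 215 and 190.4 normalised reads in PLKO_TNF and 661, 743 and 387 in shTon_TNF. PLKO_TNF libraries varied little and every shTon_TNF library was above them (log2 fold change 1.45, SE 0.20, adjusted p = 0.0389). Adamts12, a related protease that can cleave cartilage oligomeric matrix protein, had 323, 376 and 696 normalised reads in PLKO_TNF and 774, 987 and 1286 in shTon_TNF and no overlap (log2 fold change 1.18, SE 0.17, adjusted p = 0.0478). Without set 1 the list gave calls both ways, 5 higher and 6 lower. The stromelysin gene Mmp3, among the most abundant transcripts, and the collagenase gene Mmp13 were chosen after their values were seen. Mmp3 had a log2 fold change of -1.25 (SE 0.36, adjusted p = 0.164). Mmp13 had a log2 fold change of -1.16 (SE 0.23, adjusted p = 0.087) with 3 sets and -1.25 (adjusted p = 0.0317) without set 1.

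The fibrillar matrix and fibroblast list had 2 rises and 0 falls among 33 genes, with 25 higher by value and 13 higher in 3 of 3 sets (median 0.38, and 20.5% of all genes were higher in 3 of 3). The set medians of this list were 0.61, 0.52 and 0.00, so that set 3 had no shift, and its median without TNF-a was 0.08. Without set 1, 4 members rose (Col1a1, Col3a1, Col5a3 and Loxl2) and 0 fell. Col3a1, the chain of type III collagen, held 7733, 5957 and 414 normalised reads in PLKO_TNF and 21044, 24497 and 887 in shTon_TNF. Set 3 was low in both groups, so that the groups overlap although it was higher in each set (log2 fold change 1.53, SE 0.21, adjusted p = 0.0389), and edgeR's adjusted p was 0.0619. Col5a3, a minor chain of type V collagen, had 215, 271 and 119 normalised reads in PLKO_TNF and 717, 1221 and 302 in shTon_TNF without overlap (log2 fold change 1.75, SE 0.20, adjusted p = 0.0314). Col1a1, of type I collagen, is also in the annulus fibrosus and tendon list of 7 tested genes, where 0 passed; there Scx, a tendon transcription factor, had a log2 fold change of 0.73 (SE 0.18, adjusted p = 0.128). Col1a1 had 6356, 17465 and 5421 normalised reads in PLKO_TNF and 29220.3, 42544 and 12346 in shTon_TNF, with a log2 fold change of 1.56 (SE 0.26, adjusted p = 0.0741), and passed with all 12 libraries in the fit (log2 fold change 1.55) or without set 1 (log2 fold change 1.24, adjusted p = 0.0334). The cartilage and nucleus pulposus matrix list gave 0 calls among 19 genes (median 0.08) in the fit over 3 sets. Its smallest p-values were those of Col11a2, a chain of type XI collagen (log2 fold change 1.60, SE 0.37, adjusted p = 0.111), and of the matrilin gene Matn4 (log2 fold change 1.82, SE 0.50, adjusted p = 0.152). Without set 1, 3 members rose and 0 fell: Matn4 (log2 fold change 2.70, adjusted p = 7.82e-05), Col11a2 (log2 fold change 2.04, adjusted p = 0.0155) and the hyaluronan synthase gene Has2 (log2 fold change 1.44, adjusted p = 0.0159).

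Further extracellular proteins rose. Pappa, a protease that frees insulin-like growth factors by cleaving their binding proteins, held 2612, 1894 and 118 normalised reads in PLKO_TNF and 7925, 4995 and 579 in shTon_TNF. It was the 1 call among 16 genes of the IGF axis (1 rise and 1 fall without set 1), and sets again differed widely (log2 fold change 1.76, SE 0.20, adjusted p = 0.0314). Plau, urokinase, which activates plasminogen, had 2646, 2308 and 1678 normalised reads in PLKO_TNF and 5097, 6477 and 4860.4 in shTon_TNF, without overlap (log2 fold change 1.32, SE 0.18, adjusted p = 0.0389). Sulf2, an extracellular sulfatase that edits heparan sulfate, had 375, 677 and 429 normalised reads in PLKO_TNF and 1099, 1779.5 and 1114 in shTon_TNF, without overlap and with nearly equal log2 ratios of 1.55, 1.39 and 1.37 (log2 fold change 1.44, SE 0.15, adjusted p = 0.0279). Tinagl1, a matricellular protein of basement membranes, had 94.3, 428 and 183 normalised reads in PLKO_TNF and 253, 838 and 599.6 in shTon_TNF (log2 fold change 1.36, SE 0.20, adjusted p = 0.0494). Its adjusted p was the closest to the threshold of the 31.

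Receptors, ligands and a transcription factor were also among the genes that rose. Wnt11, a ligand of the non-canonical Wnt pathway, had 10.5, 5.09 and 15.8 normalised reads in PLKO_TNF and 55.1, 37.6 and 116 in shTon_TNF. This was the largest rise, from low counts in all PLKO_TNF libraries and without overlap (log2 fold change 2.58, SE 0.33, adjusted p = 0.0389). Of the 31 TGF-beta, BMP and Wnt genes on the list, which does not hold Wnt11, 0 passed (median 0.14). Lrrc32, or GARP, which holds latent TGF-beta at the cell surface, had 38.1, 53 and 61.9 normalised reads in PLKO_TNF and 126, 178 and 207 in shTon_TNF. Its log2 ratios of 1.71, 1.73 and 1.72 were the most alike across sets of any called gene (log2 fold change 1.72, SE 0.22, adjusted p = 0.0389). P2ry6, a receptor for the nucleotide UDP, had 38.6, 137 and 195 normalised reads in PLKO_TNF and 124, 482 and 719.5 in shTon_TNF (log2 fold change 1.78, SE 0.19, adjusted p = 0.0279). Glis2, a zinc-finger transcription factor, held 261, 226 and 226 in PLKO_TNF and 725, 457 and 663 in shTon_TNF without overlap (log2 fold change 1.35, SE 0.18, adjusted p = 0.0389). Tmem26, a membrane protein, had 27.5, 38.7 and 15.8 normalised reads in PLKO_TNF and 116, 184 and 52.0 in shTon_TNF (log2 fold change 1.97, SE 0.27, adjusted p = 0.0389).

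**Figure D3:**
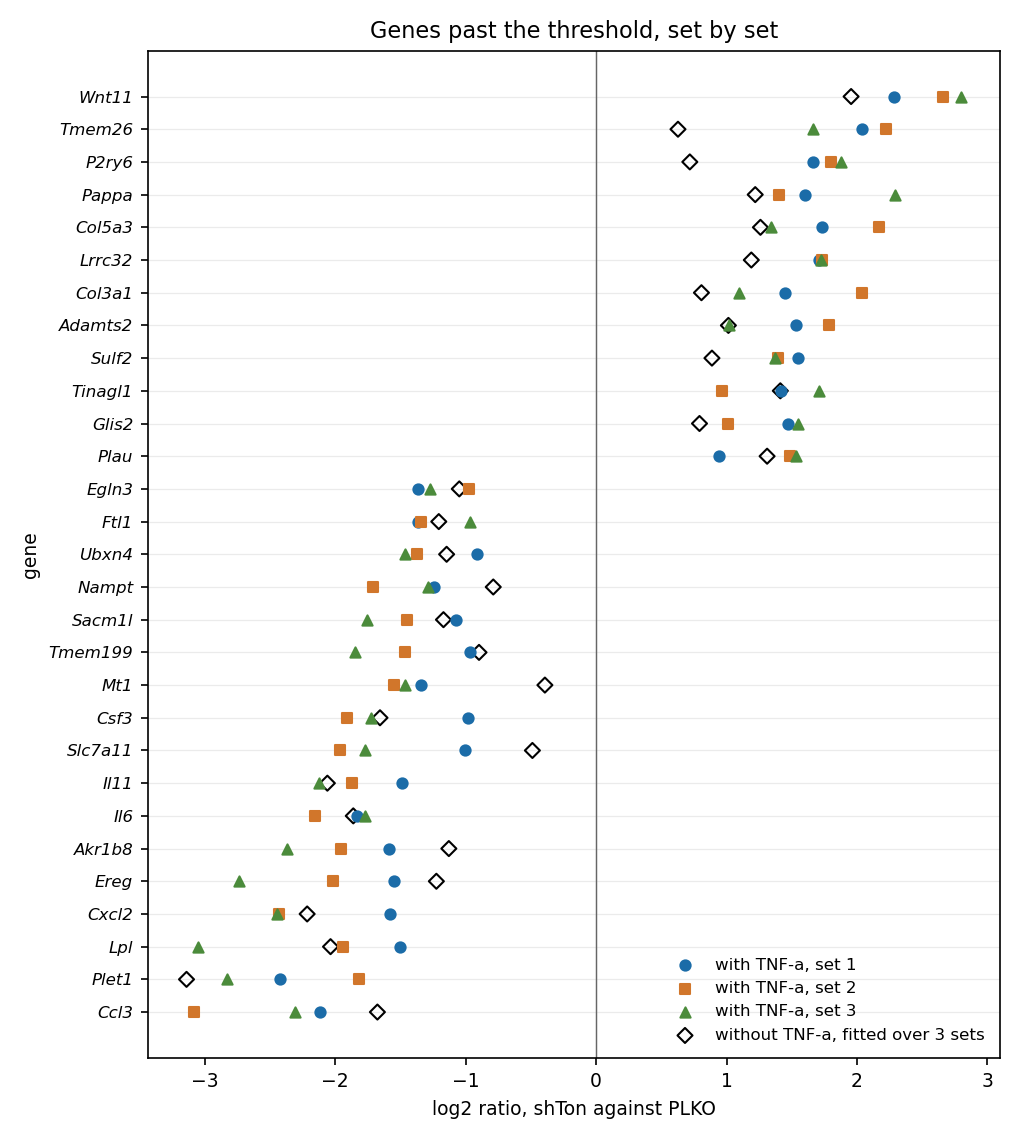
Log2 ratios of shTon to PLKO (x axis) for 29 of the 31 genes past the threshold, the 17 that fell and the 12 largest rises (y axis, ordered by the fitted fold change), with filled points for sets 1, 2 and 3 with TNF-a and open diamonds for the fold change fitted over 3 sets without TNF-a. Points of every gene lie on 1 side of 0, and the diamonds lie on the same side.

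The tested members of a list of TonEBP and its known targets gave no calls. Only 0.254% of all genes tested did, so 0 calls do not set so short a list apart. Of the 20 genes on the list 14 were among those listed for these libraries, and nothing is said here of the others. Of 13 tested members of the list, Nfat5 included, 0 rose and 0 fell, 10 were lower by value and 4 lower in 3 of 3 sets (median -0.26, set medians 0.01, -0.33 and -0.63). The shares over all genes tested were 47.6% lower by value and 19.8% lower in 3 of 3 sets. The smallest p-values were those of Akr1b1, aldose reductase, which makes sorbitol, and of Aqp1, a water channel. Akr1b1 had 9098, 5253 and 10297 normalised reads in PLKO_TNF and 5484, 3409 and 6674 in shTon_TNF, lower in each set (log2 fold change -0.66, SE 0.17, adjusted p = 0.135). Aqp1 had 126, 86.6 and 588 normalised reads in PLKO_TNF and 94.9, 47.9 and 98.2 in shTon_TNF (log2 fold change -1.27, SE 0.39, adjusted p = 0.179). Sgk1, a salt-induced kinase, had a log2 fold change of -0.75 (SE 0.23, adjusted p = 0.183). The taurine transporter gene Slc6a6 had 1172, 1025 and 1009 normalised reads in PLKO_TNF and 1503, 1066 and 426 in shTon_TNF and a log2 fold change of -0.28 (SE 0.29, adjusted p = 0.662): higher by value in sets 1 and 2 and lower in set 3. The amino acid transporter genes Slc38a2 and Slc6a9 had a log2 fold change of -0.46 (SE 0.18, adjusted p = 0.252) and -0.39 (SE 0.37, adjusted p = 0.624), the chaperone genes Cryab, Hspb1 and Hspa4l had log2 fold changes of -0.24, 0.31 and 0.14, and S100a4 and the hexose transporter gene Slc2a6 had -0.09 and -0.06. B3gat3, which builds the linker of glycosaminoglycan chains, had 703, 888 and 748 normalised reads in PLKO_TNF and 792, 1258 and 1654 in shTon_TNF, higher in each set (log2 fold change 0.61, SE 0.21, adjusted p = 0.209). Without set 1, 1 member was called higher (B3gat3) and 2 lower (Aqp1 and Nfat5).

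In the cell cycle lists the median lay near or above 0 in set 1 and below 0 in sets 2 and 3. For comparison with the counts in this paragraph, 0.254% of all genes tested passed, 47.6% were lower by value and 19.8% lower in 3 of 3 sets. Of 29 DNA replication genes 0 passed, 26 were lower by value, 12 lower in 3 of 3 sets, and the set medians were -0.01, -0.61 and -0.57. Mcm6, a subunit of the replicative helicase, had 729, 869 and 995 normalised reads in PLKO_TNF and 663, 383 and 487 in shTon_TNF (log2 fold change -0.78, SE 0.22, adjusted p = 0.16), and Pcna, the polymerase clamp, -0.52 (SE 0.15, adjusted p = 0.165). Of 29 mitosis genes 0 passed, 28 were lower by value, 3 lower in 3 of 3 sets, and the set medians were 0.27, -0.71 and -0.71. That 3 of 29 is a smaller share than the 19.8% of all genes. Top2a, topoisomerase II, had 488, 612 and 855 normalised reads in PLKO_TNF and 619, 301 and 332 in shTon_TNF (log2 fold change -0.68, SE 0.30, adjusted p = 0.304), and the spindle factor Tpx2 had a log2 fold change of -0.59 (SE 0.20, adjusted p = 0.2). Without set 1, 7 replication and 4 mitosis genes fell and 0 rose, where 2.51% of all genes fell and 1.52% rose. Of 23 endoplasmic reticulum chaperones and unfolded protein response genes 0 passed, 20 were lower by value and 13 lower in 3 of 3 sets (median -0.37, set medians -0.05, -0.55 and -0.18), with a log2 fold change of -0.74 (SE 0.17, adjusted p = 0.111) for the phosphatase subunit Ppp1r15a and -2.16 (SE 0.67, adjusted p = 0.183) for Derl3. Without set 1, 3 of these fell (Derl3, Ppp1r15a and Atf6) and 0 rose. Of 27 sterol and fatty acid synthesis genes 0 passed, with or without set 1, and 21 were lower by value (median -0.23, set medians 0.05, -0.52 and -0.19), with a log2 fold change of -0.57 (SE 0.21, adjusted p = 0.236) for Pmvk and -0.45 (SE 0.21, adjusted p = 0.315) for Cyp51.

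Growth-arrest genes were mostly higher by value, with no calls over 3 sets. Of 29 p53, growth-arrest and apoptosis genes 0 passed, 23 were higher and 6 lower by value (median 0.30, set medians 0.11, 0.33 and 0.47). In 3 of 3 sets 15 were higher and 4 lower, against 20.5% and 19.8% of all genes tested. Bbc3, which encodes the death factor PUMA, had 82.0, 71.3 and 93.4 normalised reads in PLKO_TNF and 136, 159.6 and 277 in shTon_TNF (log2 fold change 1.14, SE 0.24, adjusted p = 0.0964), and Zmat3, a p53 target, had 358, 410.4 and 402 normalised reads in PLKO_TNF and 1286, 515 and 936 in shTon_TNF (log2 fold change 1.13, SE 0.27, adjusted p = 0.117). Without set 1, 4 members rose (Bbc3, Cdkn1a, Gadd45g and Casp4) and 0 fell. Interferon response and antigen presentation genes had 0 calls among 29 (median 0.12), and without set 1 2 rises (Irf7 and Tap1) and 2 falls (Ifit3 and Oasl). Ifit3, an interferon-induced antiviral gene, had 448, 158 and 65.5 normalised reads in PLKO_TNF and 45.9, 35.7 and 24.6 in shTon_TNF, lower in each set (log2 fold change -2.25, SE 0.36, adjusted p = 0.0686), and Oasl had a log2 fold change of -1.88 (SE 0.40, adjusted p = 0.102). ATF4 amino acid and one-carbon genes had Slc7a11 as their 1 call among 27 (median -0.08). Without set 1, 4 others rose (Trib3, Chac1, Sesn2 and Aldh1l2). In the TGF-beta, BMP and Wnt list the smallest p-values were those of Bmp1 (log2 fold change 0.60, SE 0.15, adjusted p = 0.127) and Axin2 (log2 fold change 0.99, SE 0.26, adjusted p = 0.139). Without set 1, Axin2 rose, and Fst and Sfrp2 fell.

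The markers of other cell types differed by value between groups, in some lists in every set. Over all genes tested, 47.6% were lower by value. Skeletal muscle markers gave 0 calls among 19, with or without set 1, with 17 higher by value and set medians of 0.81, -0.09 and 0.00. Neb and Actn2 had a log2 fold change of 1.14 (SE 0.35, adjusted p = 0.179) and 1.11 (SE 0.36, adjusted p = 0.192). Mitochondrially encoded genes gave 0 calls among 12, 11 were higher by value, and the set medians were 1.25, -0.09 and 0.81, while their share of all reads was 0.502%, 1.09% and 0.577% in PLKO_TNF and 0.556%, 1.10% and 0.554% in shTon_TNF. Mt-nd2 had a log2 fold change of 1.61 (SE 0.37, adjusted p = 0.111), and was the 1 rise of the list without set 1, and Mt-nd4l 1.21 (SE 0.37, adjusted p = 0.178). The bone and osteoclast markers summed to 30169, 44918 and 41111 normalised reads in PLKO_TNF and 11063, 24905 and 6642 in shTon_TNF, lower in each set. Most of each sum was Spp1, and the list as a whole was not lower. Its median log2 fold change was 0.18, with 3 of 6 members higher in 3 of 3 sets and 1 lower. Among them Spp1, osteopontin, had 28557, 43688 and 40346 normalised reads in PLKO_TNF and 9566, 22767 and 5954 in shTon_TNF (log2 fold change -1.76, SE 0.34, adjusted p = 0.08) and Runx2 had a log2 fold change of 1.01 (SE 0.30, adjusted p = 0.172). Of these bone genes 0 of 6 passed, and without set 1 Spp1 fell. Smooth muscle and pericyte genes gave 0 calls among 8, with a log2 fold change of 0.83 (SE 0.21, adjusted p = 0.128) for Mcam and 0.65 (SE 0.26, adjusted p = 0.257) for Abcc9 (without set 1 Mcam rose and Cnn1 fell), and the endothelial markers gave 0 among 3, with or without set 1, with a log2 fold change of 0.23 (SE 0.18, adjusted p = 0.555) for Egfl7 and 0.53 (SE 0.44, adjusted p = 0.574) for Tek. The leukocyte sums given above were nearly equal in set 1 and higher in shTon_TNF in sets 2 and 3. That rise of the sums came from Cd14, without which the sums were lower in shTon_TNF in each set. The median log2 ratios of the 3 tested leukocyte markers in sets 1, 2 and 3 were -0.05, -0.47 and 0.55. The leukocyte markers gave 0 calls among 3. Of these Cd14, given above as a receptor, was higher by value (log2 fold change 1.27) and Cd68 was lower (log2 fold change -1.32, SE 0.40, adjusted p = 0.178), and without set 1 Cd14 rose. Of 7 nucleus pulposus and notochord markers 0 passed, with a log2 fold change of -0.77 (SE 0.18, adjusted p = 0.115) for the glucose transporter gene Slc2a1 and 0.42 (SE 0.21, adjusted p = 0.353) for Krt8, and without set 1 Slc2a1 fell. The part of these cell types in the changes above was not tested.

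**Figure D4:**
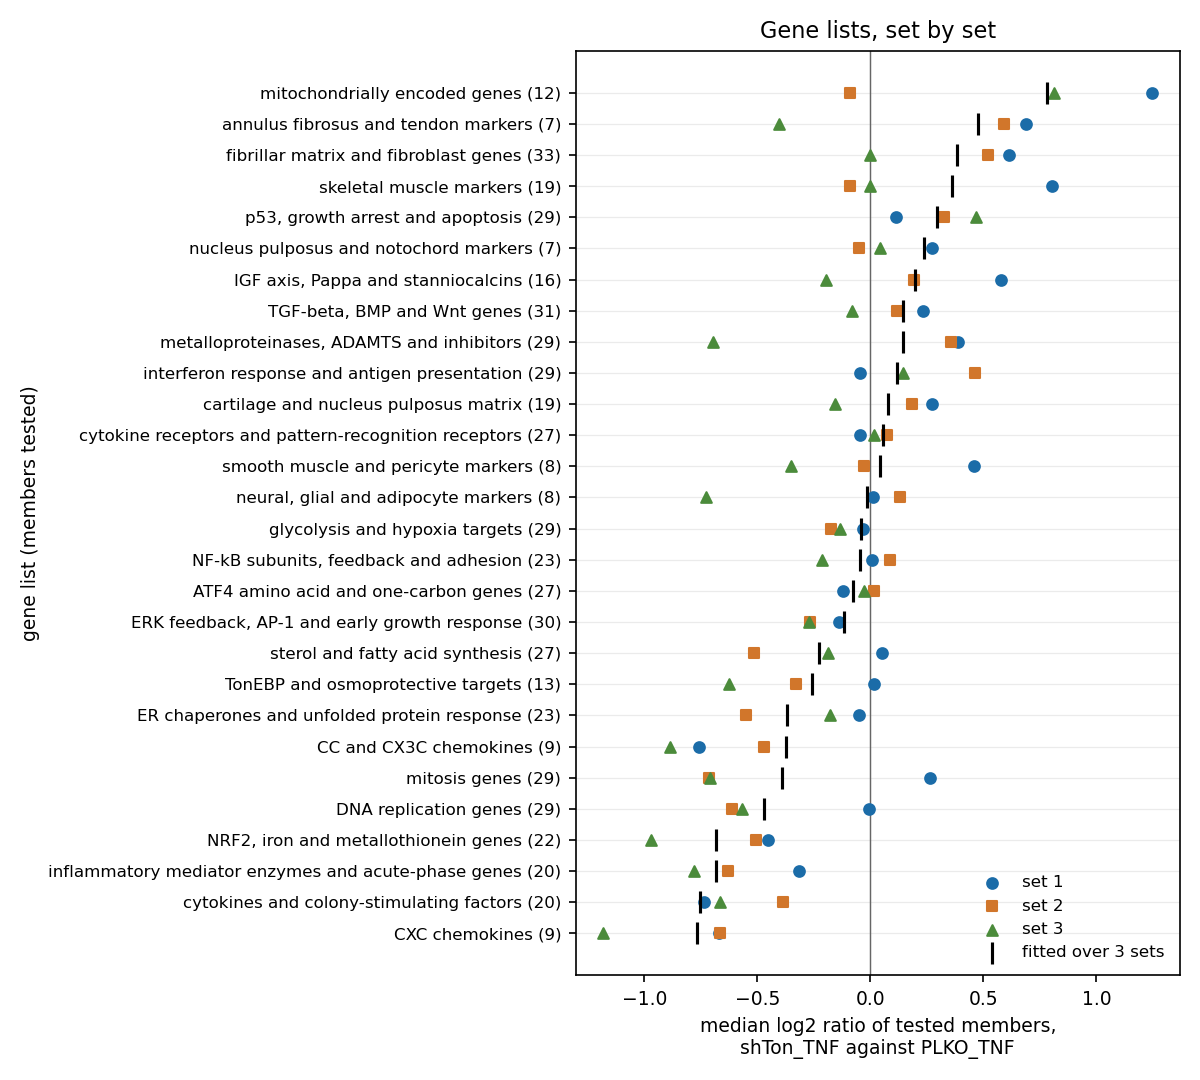
Median log2 ratio of shTon_TNF to PLKO_TNF (x axis) over the tested members of each gene list with at least 7 of them (y axis, number in brackets), as coloured points for sets 1, 2 and 3 and a black bar for the median of the fold changes fitted over 3 sets. CXC chemokines, cytokines, mediator enzymes and NRF2 genes lie below 0 in all sets. So do CC and CX3C chemokines, ERK feedback genes, endoplasmic reticulum chaperones, glycolysis genes and DNA replication genes, the last 3 only just in set 1. Mitosis genes lie at 0.27 in set 1 and at -0.71 in sets 2 and 3.

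Whether set 1 went with the other sets was measured on genes chosen without it. From sets 2 and 3 alone 487 of the genes tested in all 3 sets passed, 183 higher and 304 lower. In set 1 itself 407 of these 487 (83.6%) had a ratio of the same direction, against 60% of all 12030 genes tested both ways. The share was 167 of 183 for the genes called higher and 240 of 304 for those called lower. Sizes were smaller in set 1: the median log2 ratio was 0.72 for the genes called higher and -0.40 for those called lower, against fitted values of 1.25 and -1.15 in sets 2 and 3. Nfat5 itself was called lower in sets 2 and 3 and was higher in set 1. With set 2 left out, 132 of 157 genes (84.1%, background 67.7%) went the same way in set 2, and with set 3 left out 30 of 32 (93.8%, background 59.4%) did so in set 3. Across the 12213 genes the log2 ratios of sets 1 and 2 correlated at r = 0.361 (Spearman's rho 0.389), those of sets 1 and 3 at 0.197 (0.165) and those of sets 2 and 3 at 0.365 (0.364). Genes are not independent replicates, and these values are given as a description.

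**Figure D5:**
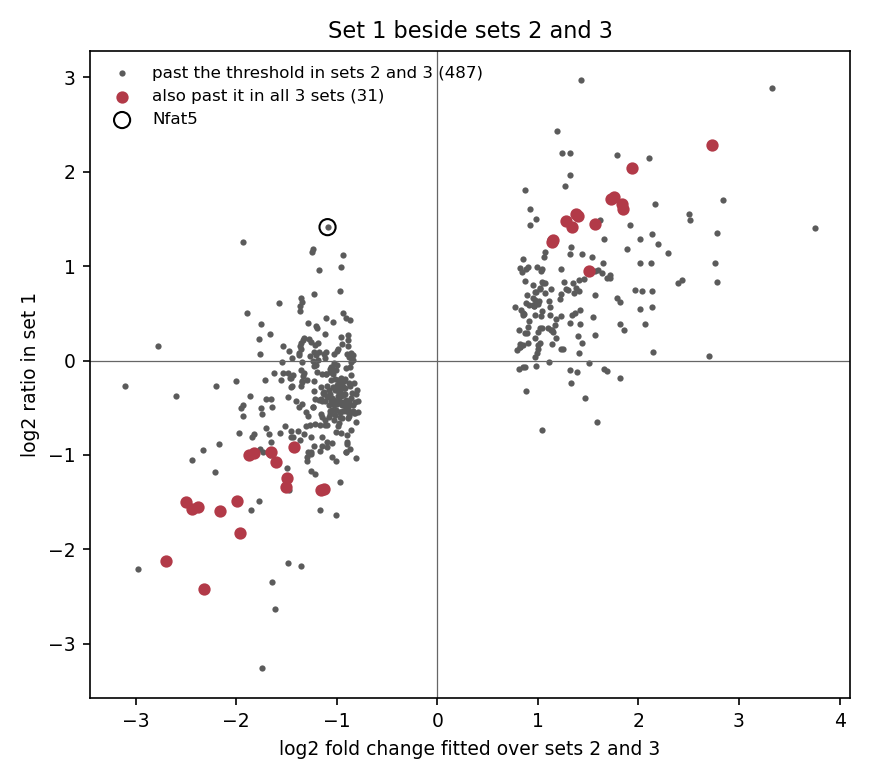
Log2 ratio of shTon_TNF to PLKO_TNF in set 1 (y axis) against the fold change fitted over sets 2 and 3 (x axis) for the 487 genes that passed in sets 2 and 3, with the 31 genes that also passed in all 3 sets in red and Nfat5 circled. Of the 487 genes 407 have the same sign on both axes; for the 31 genes in red set 1 was part of the choice, so their position says nothing about set 1. Nfat5 lies at the upper left at -1.09 and 1.41.

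The same shRNA was compared with the control vector in cells without TNF-a, in libraries that share no sample with those above. There 14 of 12383 genes passed (0.113%), 2 higher (0.0162%) and 12 lower (0.0969%). All 31 genes called with TNF-a had the same direction without it, 30 of them in 3 of 3 untreated sets, against 74.2% of the 12091 genes tested in both. The exception was Mt1, which was higher by value in 1 untreated set. Called without TNF-a as well were 6 of the 31: Cxcl2 (-2.22), Il11 (-2.06), Csf3 (-1.66), Ftl1 (-1.21), Sacm1l (-1.17) and Pappa (1.22), where the values are log2 fold changes without TNF-a. The median fold change of the genes that rose was 1.49 with TNF-a and 0.95 without, and that of the genes that fell was -1.58 and -1.21.

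Whether the effect of the shRNA differed with TNF-a was tested as an interaction over all 12 libraries with the set as a block. None of 12310 genes passed in limma (0%, smallest adjusted p 0.999), and 219 had an unadjusted p under 0.05. By edgeR and by DESeq2 on the recovered reads 0 passed too, with 248 and 271 genes at an unadjusted p under 0.05. Of the 31 called genes, Tmem26 had the smallest unadjusted p (0.00796), with an effect larger by 1.34 on the log2 scale with TNF-a. A gene called with TNF-a and not without it is therefore not shown to respond differently. Levels of all 4 groups on the joint scale are given as mean ± SD (n = 3) for 4 called genes, chosen after their values were seen. Il6 averaged 805 ± 493 normalised reads in PLKO_CTR, 216 ± 145 in shTon_CTR, 2197 ± 1247 in PLKO_TNF and 553 ± 228 in shTon_TNF, so that the mean of shTon_TNF lay between those of the untreated groups. Cxcl2 averaged 1411 ± 1035 normalised reads in PLKO_CTR, 323 ± 231 in shTon_CTR, 18469.7 ± 18071 in PLKO_TNF and 3774 ± 3049 in shTon_TNF, and there the mean of shTon_TNF was above both untreated means. Plau, which rose, averaged 371 ± 154 normalised reads in PLKO_CTR, 877 ± 26.1 in shTon_CTR, 2321 ± 526 in PLKO_TNF and 5732 ± 908 in shTon_TNF. Sulf2 averaged 1001 ± 432 normalised reads in PLKO_CTR, 1790.2 ± 495 in shTon_CTR, 518 ± 168 in PLKO_TNF and 1392 ± 406 in shTon_TNF, so that the mean of shTon_TNF was above that of PLKO_CTR while the mean of PLKO_TNF was below it. The spread over sets was wide in several of these groups, and these orders of 4 means were not tested.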

How the data were processed

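RNA-seq of 12 libraries was deposited as tables of normalised signal per gene. Reads were aligned with Novoalign 2.08.01 to rn5 and compared with DESeq2 (version not given), per the submitters' processing notes; for the annotation, counter, strand and multi-mapping reads the setting was not given in the sources used here. All values of a library were whole multiples of 1 step within 0.001, so whole reads were recovered (100% of values). The log2 fold changes and p-values of the authors' deposited tables were not used.

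The 6 libraries of shTon_TNF and PLKO_TNF had 7160042 to 18645538 reads on listed genes. For genes with a mean of at least 10, log2(value + 1) was fitted in limma 3.58.1 (R 4.3.3) with a mean-variance trend and the set as a block, with Benjamini-Hochberg adjustment over all genes and a threshold of 0.05. A log2 fold change here is one of log2(value + 1), so it understates changes of low genes. All adjusted p-values are from this test unless another tool is named. The set numbers are in the library titles, and libraries of the same set deviated together from their group means (r = 0.748, 0.674 and 0.793, against -0.675 to 0.174 for different sets). No 2 libraries of a group were alike within sampling noise (chi-square per degree of freedom 94 to 127.7).

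Alternatives were no block, no trend, pseudocounts of 0.1 and 5, no filter or a mean of 50, TMM scaling, edgeR 4.0.16 and DESeq2 1.42.0 on the recovered reads, all 12 libraries in 1 fit, and each set left out; edgeR and DESeq2 for the interaction were added after seeing the data. Code was tested on simulated data. The members and gene lists were chosen with earlier results of these data known. Genes named were Nfat5 and the tested TonEBP targets, of genes past the threshold with 1 sign in 3 of 3 sets and a mean of at least 100 the 12 largest rises and falls, and in each list the called members (up to 4) or else the 2 of smallest p; others are marked where they stand. The values of 1 gene that rose are not reported here. Promoter sequences are from RefSeq (GRCr8).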

Additional observations from a re-analysis of the deposited data

How the results depend on the processing

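The count of 31 genes with TNF-a was 29 to 31 without a filter, with a filter at a mean of 50, with a pseudocount of 5, with TMM scaling and by edgeR. It was 12 with a pseudocount of 0.1, 363 by DESeq2 and 444 with all 12 libraries in the fit. Without the replicate block it was 0, and without the mean-variance trend 0. Leaving out 1 set gave 32 (without set 3) to 488 (without set 1) genes, with 157 without set 2. The 14 genes without TNF-a became 0 without the replicate block, 0 without the trend and 2 with a pseudocount of 0.1, and 12 (without set 2) to 283 (without set 1) with a set left out, with 220 without set 3. The interaction gave 0 genes under each alternative run. Nfat5 ranged from -1.09 (without set 1) to 0.18 (without set 2) on the log2 scale. Among the TonEBP targets, none of which passed with 3 sets, a set left out turned the sign of Slc2a6 (-0.13 to 0.03), Slc6a6 (-0.59 to 0.21), S100a4 (-0.26 to 0.10) and Slc6a9 (-0.74 to 0.26). Of the 75 genes named by rule, 27 were past the threshold; all 27 lost it without the block and without the trend, 15 with a pseudocount of 0.1, 10 without set 3, 2 by edgeR (Col3a1 and Slc7a11), 2 with all 12 libraries (Cxcl2 and Csf3), 1 with TMM scaling (Tinagl1), 1 without set 2 (Adamts12) and 0 without set 1, by DESeq2, with a pseudocount of 5 or without a filter. The cause of these changes was not tested. Precision is limited by 3 libraries in each group, and genes near a mean of 10 rest on few reads.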
